A study of Mus musculus with 6 samples.

Results

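The semaphorins, the plexins and the neuropilins, a family of axon guidance ligands with their receptors, were followed by RNA immunoprecipitation and sequencing (RIP-seq) with antibodies against YTHDF1 and YTHDF2 in granule cells (GCs) of the mouse cerebellum. The members were all 31 mouse genes of the listed families whose gene IDs were found in the deposited table, 31 of 52550 IDs: 20 semaphorins, 9 plexins and 2 neuropilins. The rule itself uses no measured value. The cells came from wildtype C57BL/6 mice at postnatal day 8 and were freed from the dissected cerebellum with trypsin. The 3 groups were unselected lysate (input), RNA eluted from an anti-YTHDF1 precipitation (YTHDF1 RIP) and RNA eluted from an anti-YTHDF2 precipitation (YTHDF2 RIP), with 2 libraries each. The comparison of each RIP group with input asks which transcripts were recovered with each protein. Libraries made with a nonspecific antibody were not analysed here, so an mRNA that is higher in a RIP group than in input was not set against what beads and antibody alone recover. Nothing in the labels says that the 2 replicates came from separate animals or cultures, so that p-values measure no more than the spread of these libraries, and that spread may be technical. Below, a value "with YTHDF1" or "with YTHDF2" is one from the libraries of that RIP.

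The cytoplasmic proteins YTHDF1 and YTHDF2 bind mRNAs that carry N6-methyladenosine (m6A). Semaphorins are guidance cues that act at the growth cone, some as secreted proteins (class 3) and others as membrane proteins (classes 4, 5, 6 and 7). Plexins are their main signalling receptors, and neuropilins are co-receptors that most class 3 semaphorins need to act through plexins of class A. In the developing mouse cerebellum, Sema6a and Plxna2 are known for their part in granule cell migration, and Plxnb2 for its part in the division and migration of granule cell precursors.

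The values are in FPKM, fragments per kilobase of a transcript relative to all mapped fragments of its library. They take transcript length into account, so levels can be compared between genes. The sum of all FPKM values lay between 481314 and 871655 in the 6 libraries, and the files give no read counts, so the depth of a library is not known. Mitochondrial transcripts took 18.4% and 17.99% of the summed FPKM in the 2 input libraries, 0.607% and 3.68% with YTHDF1 and 0.0892% and 0.886% with YTHDF2, and FPKM of all other genes in a library rise when such a class of RNA is lost. Nuclear protein-coding genes took 7.71% and 8.26% in input, 10.1% and 12.9% with YTHDF1 and 11.3% and 18.9% with YTHDF2, of sums that were lower in the RIP libraries. With each library scaled to these genes, the median log2 change of the tested members against input was 1.00 with YTHDF1 and 1.16 with YTHDF2. As measured it was 0.95 and 1.36. The part of this shift in the results was not tested apart from the scaling alternatives. Of the granule cell markers, Neurod1 stood at 183 and 224 FPKM in input and the late marker Gabra6 at 0 and 0.67. Markers of other cells were present too: those of astrocytes and Bergmann glia summed to 288 and 261 FPKM in input and those of the oligodendrocyte lineage to 70.3 and 96.8. In these bulk samples fewer cells of a type and less RNA per cell cannot be told apart, and the cell type that supplied a member's mRNA was not measured.

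Most m6A lies in short motifs of which GGACT is a common form in DNA letters, and the sites are densest around stop codons. The motif was searched on the sense strand of the longest coding transcript of each gene (GENCODE release M21, GRCm38). All 31 members held it at least once, as did 92.9% of the 9815 tested protein-coding genes. It lay within about 200 bases of the stop codon in 14 of the 31 members (45.2%), against 40.6% of the tested protein-coding genes over windows of the same rule. The 14 include Sema7a, whose motif was 201 bases after the stop codon. Below, the GGACT nearest to the stop codon is shown in capitals in its 25-base window for the 5 members that were higher with both antibodies, and for Sema3d, the tested member with the lowest change in both comparisons with input.
Sema4b: gggctcttggGGACTtctccaaagt
Sema4c: tggctcaccaGGACTtcagcctcac
Sema4f: catgatccccGGACTgccttgagat
Sema6b: acgggcgagcGGACTgcacccccgg
Sema6c: tggccttcccGGACTccgagactct
Sema3d: cattaagcatGGACTttcccatgct
The adenosine of these motifs was at base 3090 of the Sema4b transcript, base 3186 of Sema4c, base 2887 of Sema4f, base 2800 of Sema6b, base 3348 of Sema6c and base 2996 of Sema3d, counted from 1 at the 5′ end. The motif lay in the coding sequence of Sema6b, 20 bases before the last base of the stop codon, and in the 3′ UTR of the other members shown, 55 to 407 bases after it. Whether these adenosines are methylated was not measured.

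In Plxna1, Plxna2, Plxna3, Plxna4 and Plxnd1 the nearest motif fell into recurring coding windows. These are shown because the same stretch of the receptor's coding sequence carries it in several genes.
Plxna1: agaccttcatGGACTcctgctctac
Plxna4: agaccttcatGGACTcctgctccac
Plxna2: gactaggcaaGGACTcaccttccaa
Plxna3: gcctgggcaaGGACTcaccttccaa
Plxnd1: agctgggcaaGGACTcacccaccaa
The windows of Plxna1 and Plxna4 were identical at 24 of 25 bases, and both adenosines were 346 bases before the last base of the stop codon. The windows of Plxna2 and Plxna3 were identical at 23 of 25 bases, with both adenosines 310 bases before it. The window of Plxnd1 was identical to these at 20 and 21 of 25 bases, and its adenosine was 331 bases before the last base of its stop codon. The other plexins did not share these windows. The nearest motif of Plxnb1 was in the 3′ UTR, and those of Plxnb2, Plxnb3 and Plxnc1 lay elsewhere in the coding sequence. Their windows were identical to those of other plexins at 14 of 25 bases at most. Each window is placed on the motif, so the motif's own bases match in every pair by construction. How many of the remaining bases unrelated windows share was not measured. A match is a description of the letters only.

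Levels of the members in input spanned from 0.0297 FPKM for Sema3b to 27.7 ± 4.83 FPKM (SD, n = 2) for Sema6a. Sema6a, Plxnb2 at 25.8 ± 1.44 FPKM and Sema7a at 15.3 ± 1.83 FPKM led the order, and Sema6d followed at 8.40 ± 2.40 FPKM. The input values of Sema6a were 31.1 and 24.3 FPKM and those of Plxnb2 24.8 and 26.9 FPKM, so the order of these leading members does not exceed their spread. Of the 31 members, 24 reached a mean of 1 FPKM over the 6 libraries and were tested. The 7 that did not were Sema3a, Sema3b, Sema3c, Sema3e, Sema3f, Sema4a and Nrp1. A further 5 members, Sema3g, Sema5b, Sema6b, Plxna4 and Nrp2, had an input mean under 1 FPKM and reached the minimum through their RIP libraries. For the main fit, the counts past the threshold over all members, the medians against input and the counts between the antibodies are also given without them. So are the counts against input with the GC and length correction. Class values, correlations and the medians and counts of other fits include them.

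**Figure D1:**
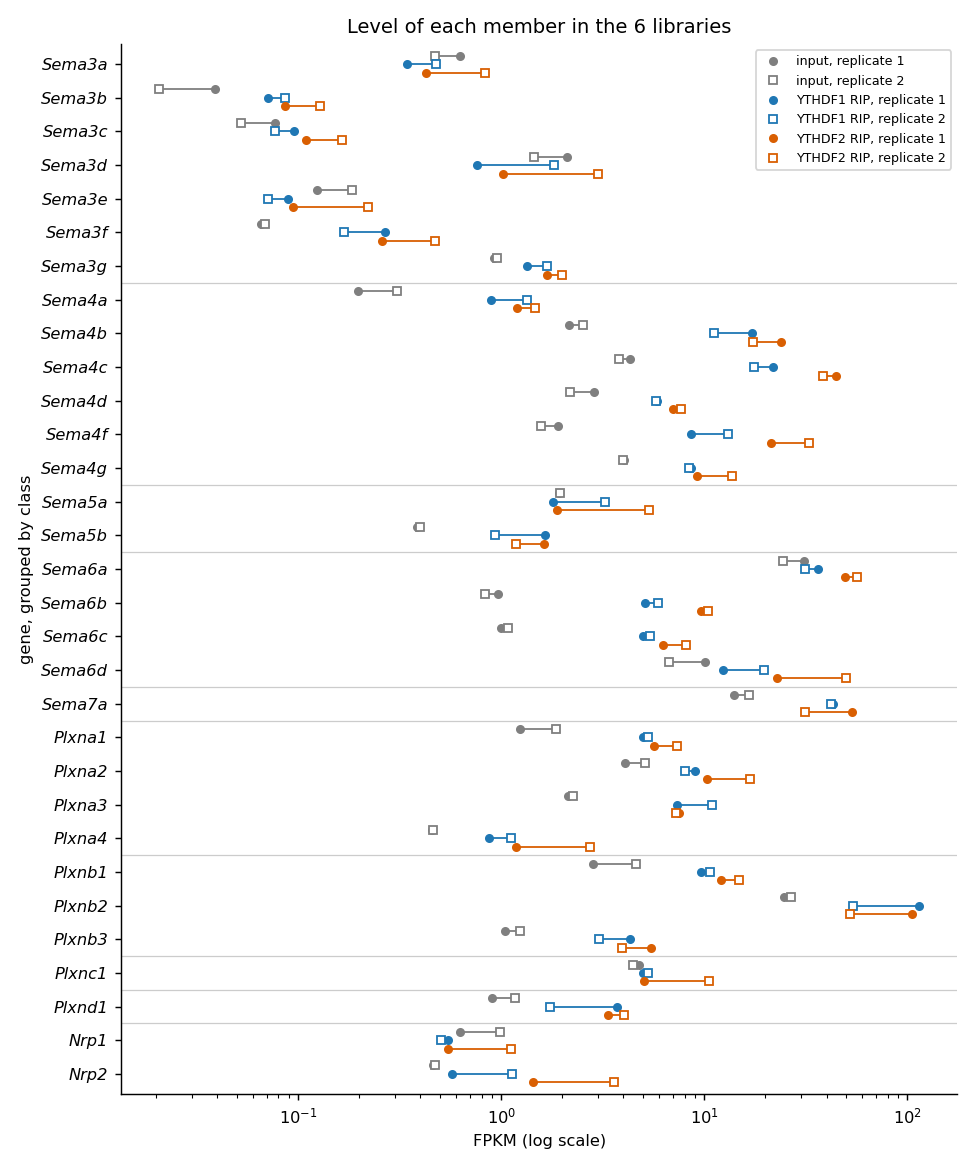
FPKM (log scale) of each of the 31 members in the 6 libraries, with the members grouped by class. Filled circles are replicate 1 and open squares replicate 2 of input (grey), YTHDF1 RIP (blue) and YTHDF2 RIP (orange), joined by a line within a group. The RIP libraries lie right of both input libraries for 25 members with YTHDF1 and 26 with YTHDF2, and for Sema3a, Sema3d and Sema5a the groups overlap.

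With YTHDF1, 5 of the 24 tested members were higher in the RIP than in input (limma, Benjamini-Hochberg adjusted p under 0.05), where 0.624% of the 11057 tested genes were. They were Sema4b, Sema4c, Sema4f, Sema6b and Sema6c, all membrane-bound ligands. No member was lower by limma, where 1.94% of all tested genes were, and none was lower at an unadjusted p under 0.05, where 13.5% were. Changes are on the log2(FPKM + 1) scale, which understates those of low genes. The median change of the tested members was 0.95, beside 0.05 for all tested genes. Among the 19 members with an input mean of at least 1 FPKM, 4 were higher, where 0.535% of such genes were, and the medians were 1.11 and -0.09. Over all 31 members and without a test, both YTHDF1 RIP libraries lay above both input libraries in 25, where 25.8% of the 22191 genes above 0 in both inputs did so. Sema3e and Nrp1, both too low for the test, had both YTHDF1 RIP libraries below both inputs. Sema3e stood at 0.124 and 0.184 FPKM in input and Nrp1 at 0.625 and 0.984. The share of all genes below both inputs was not computed, so no lowering of these members is read from this.

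With YTHDF2, 13 of the 24 tested members were higher in the RIP than in input, where 11.9% of tested genes were. They were the 5 genes above together with Sema4d, Sema4g, Sema6d, Plxna1, Plxna2, Plxna3, Plxnb1 and Plxnb3. No member was lower by limma, where 6.66% of tested genes were, and none was lower at an unadjusted p under 0.05, where 13.6% were. The median change was 1.36, beside 0.26 for all tested genes. Among the 19 members with an input mean of at least 1 FPKM, 12 were higher, where 9.37% of such genes were, and the medians were 1.39 and 0.08. Both YTHDF2 RIP libraries lay above both inputs in 26 of the 31 members, against 31.7% of genes. Of the cell type markers, none passed with YTHDF1 in any of the 9 lists, and with YTHDF2 the genes higher were 3 of 8 of the oligodendrocyte lineage, 2 of 6 of granule cell precursors, 1 of 7 of granule cells and 1 of 5 of GABAergic interneurons. The oligodendrocyte lineage list summed to 70.3 and 96.8 FPKM in input and 120 and 140 with YTHDF2, and its part in the members' values was not tested. The 2 comparisons share their input libraries, so their calls are not independent of each other. The study called an mRNA enriched at a RIP to input FPKM fold over 2 and does not say how replicates were combined. Taken here between group means, without any other filter, such a ratio was met by 19 of 31 members with YTHDF1, against 21.1% of genes, and by 23 with YTHDF2, against 33.5%. It held in each replicate against its own input for 16 and 20 members, against 10.1% and 17.5% of genes. The ratio between group means was over 2 for 4691 genes with YTHDF1 and 7431 with YTHDF2. These are far more than the mRNAs that the study lists as enriched, so meeting the ratio here does not place a member in those lists.

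These counts changed when single libraries were left out and when base composition and length were corrected for. With YTHDF1, fewer members passed when either input library or either YTHDF1 RIP library was left out, and so did fewer of all tested genes. The same was seen with YTHDF2 when either input library or YTHDF2 RIP replicate 2 was left out. Such fits leave 1 library in a group. In them the median change of the tested members was 0.92 to 1.09 with YTHDF1, beside -0.02 to 0.10 for all tested genes. With YTHDF2 it was 1.28 to 1.45, beside 0.03 to 0.29. With a correction for GC content and length and the replicate number as a block, 1 member (Sema4b) was higher with YTHDF1, where 5.09% of the genes in that fit were, so that 1 of 24 is near the share of all genes. With YTHDF2, 5 (Sema4b, Sema4c, Sema4f, Sema6b and Sema6d) were higher, where 12.5% were. Among members with an input mean of at least 1 FPKM these counts were 1, where 3.83% of such genes were higher, and 4, where 10.1% were.

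**Figure D2:**
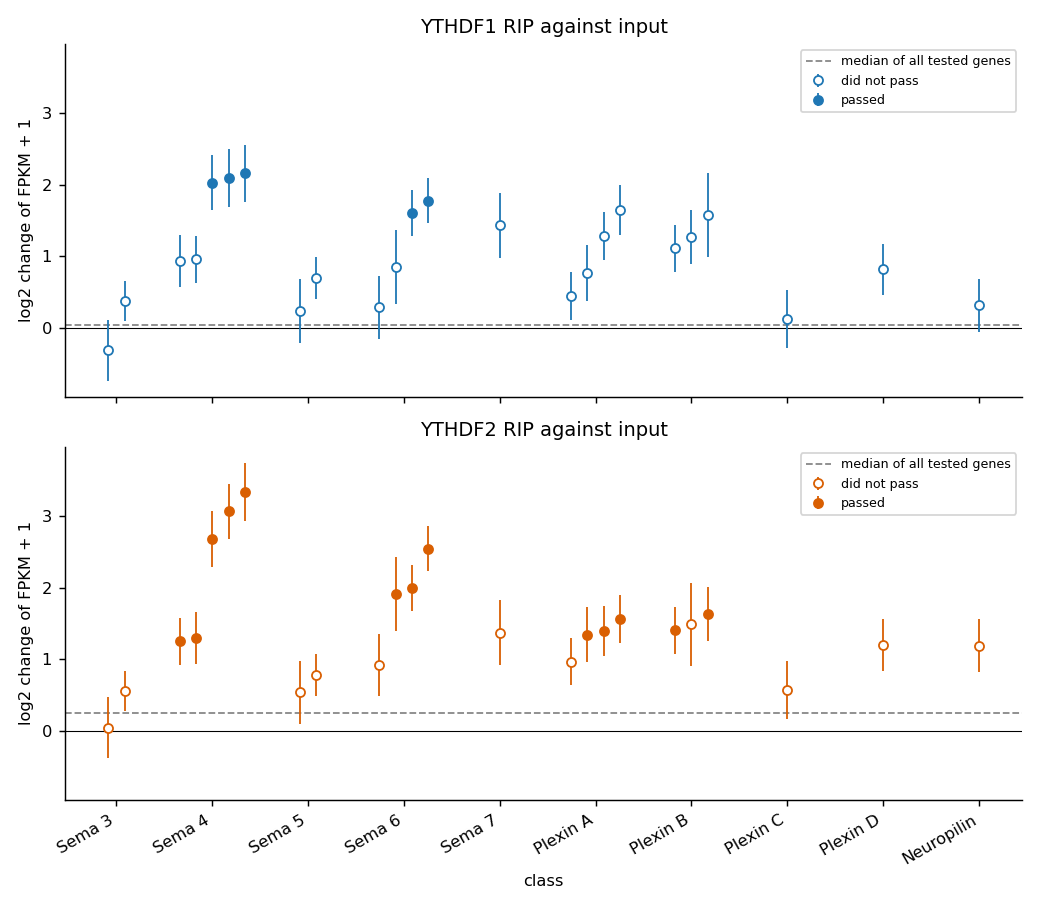
Log2 change of FPKM + 1 in each RIP against input for the 24 tested members, by class (points, fitted change; bars, 1 standard error; filled, adjusted p under 0.05 by limma). Dashed lines mark the median of all tested genes, 0.05 and 0.26. The highest points are class 4 semaphorins, up to 2.16 with YTHDF1 and 3.33 with YTHDF2.

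Class 4 semaphorins, transmembrane ligands with an immunoglobulin-like domain, included Sema4b, Sema4c and Sema4f. These had the 3 largest changes of the family with each antibody at a pseudocount of 1. At a pseudocount of 0.1 Sema6b came before Sema4c with both antibodies, and before Sema4b with YTHDF2. By the ratio of group means Sema6b came before Sema4b and Sema4c with both antibodies. With YTHDF1 and YTHDF2 this ratio was 6.13 and 11.2 for Sema6b and 6.06 and 8.8 for Sema4b. Sema6c also came before Sema4c by this ratio with YTHDF1, and Sema4f stayed first with both antibodies. The order of Sema4b and Sema4c against class 6 therefore depended on the pseudocount. All 6 members of class 4 had a RIP to input ratio over 2 in both replicates and with both antibodies. Of genes above 0 in both inputs, 10.1% had this with YTHDF1 and 17.5% with YTHDF2. Of the 5 tested, 3 were higher with YTHDF1 and 5 with YTHDF2, where 0.624% and 11.9% of tested genes were. The median changes of the 5 were 2.03 and 2.68. Sema4b, on chromosome 7 (chr7:80186841-80226527, plus strand), had 2.15 and 2.54 FPKM in input, 17.2 and 11.2 with YTHDF1 and 23.8 and 17.4 with YTHDF2. All 4 RIP libraries were above both inputs, and the YTHDF2 libraries were above the YTHDF1 libraries. Its change was 2.16 ± 0.40 (SE) with YTHDF1 (limma adjusted p = 0.0423) and 2.68 ± 0.40 with YTHDF2 (adjusted p = 0.0147).

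Sema4c, a ligand of plexin B2, lies at chr1:36548639-36558349 on the minus strand. It had 4.31 and 3.81 FPKM in input, 21.8 and 17.6 with YTHDF1 and 44.6 and 38.3 with YTHDF2, so that the 3 groups were fully separated. Its change was 2.03 ± 0.39 with YTHDF1 (limma adjusted p = 0.0454) and 3.07 ± 0.39 with YTHDF2 (adjusted p = 0.0144). An antisense transcript, D430040D24Rik, overlaps 334 of its exonic bases, and no source used here says whether the counting used strand, so its level is uncertain to that extent.

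Sema4f (chr6:82911885-82939769, minus strand) had the highest change of all members with YTHDF2. It had 1.90 and 1.56 FPKM in input, 8.59 and 13.0 with YTHDF1 and 21.3 and 32.8 with YTHDF2, again without overlap between groups. The ratio of group means to input was 6.25 with YTHDF1 and 15.6 with YTHDF2. Its change was 2.09 ± 0.40 (limma adjusted p = 0.0460) and 3.33 ± 0.40 (adjusted p = 0.0144).

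Sema4d, the ligand of plexin B1, and Sema4g were higher with YTHDF2 only by the threshold, and the difference between the antibodies did not pass for either. Sema4d had 2.87 and 2.18 FPKM in input, 5.87 and 5.79 with YTHDF1 and 6.999 and 7.72 with YTHDF2. Sema4g had 4.01 and 3.97 FPKM in input, 8.56 and 8.46 with YTHDF1 and 9.18 and 13.8 with YTHDF2. In both genes every RIP library was above every input library. Their changes were 0.96 (limma adjusted p = 0.123) and 0.93 (adjusted p = 0.157) with YTHDF1, and 1.25 (adjusted p = 0.0388) and 1.30 (adjusted p = 0.0466) with YTHDF2. Sema4a was too low for the test, at 0.198 and 0.305 FPKM in input, 0.891 and 1.35 with YTHDF1 and 1.20 and 1.47 with YTHDF2. Its groups also did not overlap between input and RIP, with ratios of 4.45 and 5.30, and it shares 73 exonic bases with the microRNA gene Mir7011.

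Class 6 semaphorins, transmembrane ligands of class A plexins, were split. Sema6b and Sema6c were higher with both antibodies, Sema6d was higher with YTHDF2 only by the threshold, and the abundant Sema6a did not pass. Sema6b (chr17:56123085-56140343, minus strand), a ligand of plexin A4, had 0.964 and 0.835 FPKM in input, 5.13 and 5.89 with YTHDF1 and 9.69 and 10.4 with YTHDF2. Its change was 1.78 ± 0.32 with YTHDF1 (limma adjusted p = 0.0404) and 2.54 ± 0.32 with YTHDF2 (adjusted p = 0.0144). The replicates of each group lay close together and the 3 groups were fully separated.

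Sema6c (chr3:95160457-95174024, plus strand) had 1.00 and 1.08 FPKM in input, 4.98 and 5.44 with YTHDF1 and 6.24 and 8.11 with YTHDF2. All RIP libraries were above both inputs, and its change was 1.60 ± 0.32 (limma adjusted p = 0.0496) and 1.99 ± 0.32 (adjusted p = 0.0147). Sema6d, known as a ligand of plexin A1, had 10.1 and 6.70 FPKM in input, 12.4 and 19.7 with YTHDF1 and 22.9 and 49.6 with YTHDF2. The RIP groups were above input, but the YTHDF2 replicates differed about as much from each other as the lower of them did from input. Its change was 0.85 ± 0.51 with YTHDF1 (limma adjusted p = 0.323) and 1.91 ± 0.51 with YTHDF2 (adjusted p = 0.0417).

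Sema6a, the ligand known from granule cell migration and the most abundant member in input, had 31.1 and 24.3 FPKM in input, 36.4 and 31.4 with YTHDF1 and 49.6 and 56.8 with YTHDF2. Its YTHDF1 libraries started just above the higher input library, and its YTHDF2 libraries were clear of it. The change was 0.29 ± 0.44 with YTHDF1 (limma adjusted p = 0.699) and 0.92 ± 0.44 with YTHDF2 (adjusted p = 0.164). A test that does not pass does not show that Sema6a was unaltered.

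Class 3 semaphorins, the secreted ligands, were low and mostly not testable. In input, 6 of the 7 were under 1 FPKM and Sema3d was at 2.10 and 1.45 FPKM. Neither of the 2 tested passed: Sema3d changed by -0.31 with YTHDF1 (limma adjusted p = 0.667) and 0.05 with YTHDF2 (adjusted p = 0.949), and Sema3g by 0.37 (adjusted p = 0.419) and 0.55 (adjusted p = 0.188). Sema3d had 0.762 and 1.81 FPKM with YTHDF1 and 1.02 and 3.01 with YTHDF2, ranges that overlap input. The sign of its change turned positive with YTHDF1 under scaling to a common sum and negative with YTHDF2 under scaling to nuclear protein-coding genes, so no direction is given for it. Among the untested members, Sema3b and Sema3f had ratios of 2.64 and 3.24 with YTHDF1 and 3.60 and 5.43 with YTHDF2, at levels below 0.5 FPKM in every library. Sema3a, Sema3c and Sema3e, whose transcripts have 40.8% to 42.7% GC, had ratios between 0.518 and 1.33 with YTHDF1 and between 1.03 and 2.11 with YTHDF2.

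In class 5, membrane ligands with thrombospondin repeats, neither member passed in either comparison. The changes of Sema5a were 0.24 and 0.54 and those of Sema5b 0.70 and 0.78. Sema5a overlapped input in both RIP groups, with one YTHDF2 library at 1.87 and the other at 5.32 FPKM against 1.92 and 1.95 in input. Sema7a, which is anchored to the membrane by a lipid and binds plexin C1 and integrins, did not pass either, with changes of 1.43 (limma adjusted p = 0.110) and 1.37 (adjusted p = 0.0724). All its RIP libraries, between 31.3 and 53.3 FPKM, were above its inputs at 14.0 and 16.5 FPKM.

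As a share of the summed FPKM of the 20 semaphorin genes, class 4 took 19.6% and 20.7% in the input libraries, 36.7% and 33.7% with YTHDF1 and 41.8% and 39.7% with YTHDF2. Class 3 took 5.01% and 4.62% in input, 1.73% and 2.56% with YTHDF1 and 1.44% and 2.43% with YTHDF2. These shares do not depend on the scaling of a library, and for both classes the RIP libraries did not overlap input. Class 6 held the largest share in input, 54.8% and 47.4%, most of it Sema6a, and stood at 34.4% to 44.4% in the RIP libraries. An exact permutation test of 2 against 2 libraries cannot pass the threshold, and no test of the shares was run.

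**Figure D3:**
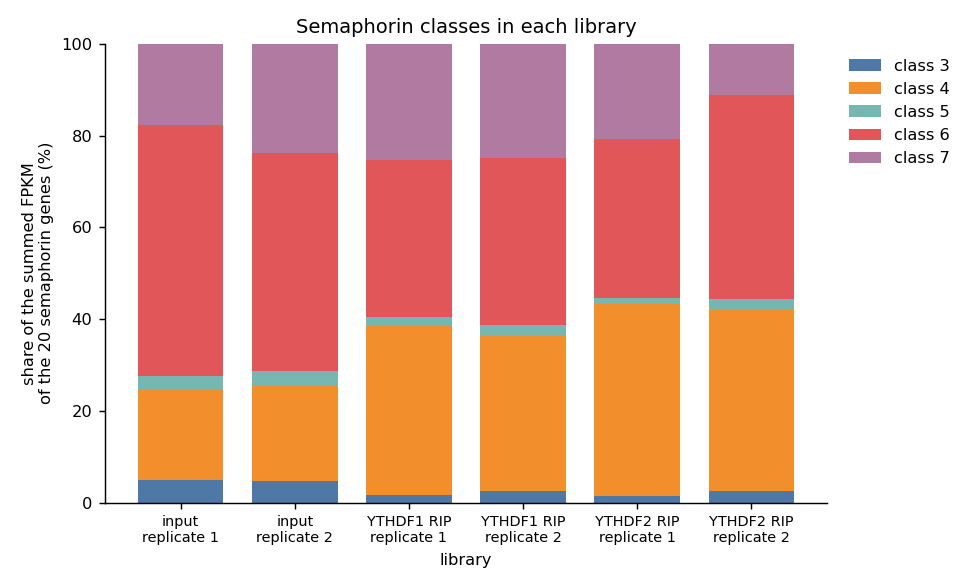
Share (%) of the summed FPKM of the 20 semaphorin genes taken by each class in each of the 6 libraries (stacked bars, 1 bar per library). Class 4 (orange) goes from 19.6% and 20.7% in input to between 33.7% and 41.8% in the RIP libraries, and class 3 (dark blue) goes from 5.01% and 4.62% to between 1.44% and 2.56%.

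The largest plexin change was below those of Sema4b, Sema4c and Sema4f with each antibody, differences that were not tested. All 9 plexins were tested. By limma 0 were higher with YTHDF1 and 5 with YTHDF2, where 0.624% and 11.9% of tested genes were. All 9 had both RIP libraries above both inputs with each antibody. Of the 22191 genes above 0 in both inputs 25.8% and 31.7% did so, a set that includes genes too low for the test. Median changes of the plexins were 1.11 with YTHDF1 and 1.39 with YTHDF2. Class A plexins are the signalling receptors for class 3 and class 6 semaphorins. Plxna1 had 1.23 and 1.86 FPKM in input, 5.01 and 5.31 with YTHDF1 and 5.67 and 7.32 with YTHDF2, with changes of 1.29 (limma adjusted p = 0.0761) and 1.56 (adjusted p = 0.0245). With the replicate block it passed with YTHDF1 too (adjusted p = 0.0379). The antisense transcript Gm26811 overlaps 970 of its exonic bases, the longest such overlap among the members.

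Plxna3, on the X chromosome, was the class A plexin with the largest change with YTHDF1, and its YTHDF1 and YTHDF2 ranges met. It had 2.13 and 2.27 FPKM in input, 7.34 and 10.9 with YTHDF1 and 7.51 and 7.25 with YTHDF2. Its changes were 1.64 (limma adjusted p = 0.0540, and 0.0192 with the replicate block) and 1.39 (adjusted p = 0.0359). Plxna2, the receptor known from granule cell migration, had 4.09 and 5.12 FPKM in input, 9.02 and 8.02 with YTHDF1 and 10.4 and 16.7 with YTHDF2. Every RIP library was above input, and its changes were 0.77 (adjusted p = 0.245) and 1.35 (adjusted p = 0.0499). Plxna4 was the lowest of the 4, at 0.456 and 0.462 FPKM in input, 0.870 and 1.12 with YTHDF1 and 1.19 and 2.72 with YTHDF2. Its change with YTHDF2 was 0.97 and passed only with the replicate block (adjusted p = 0.0777 without and 0.0374 with it). With the GC and length correction added, its sign turned, to -0.07 with YTHDF1 and -0.16 with YTHDF2.

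Class B plexins are the receptors of class 4 semaphorins. Plxnb1 had 2.82 and 4.63 FPKM in input, 9.68 and 10.7 with YTHDF1 and 12.1 and 14.9 with YTHDF2. Plxnb3, on the X chromosome, had 1.04 and 1.24 FPKM in input, 4.30 and 3.04 with YTHDF1 and 5.49 and 3.94 with YTHDF2. Both were above input in every RIP library, and both passed with YTHDF2, at 1.64 (limma adjusted p = 0.0292) and 1.40 (adjusted p = 0.0304), but not with YTHDF1, at 1.27 (adjusted p = 0.0980) and 1.11 (adjusted p = 0.0972). Plxnb2, the abundant class B plexin, did not pass although its ratios were 3.27 and 3.05. Its replicates were far apart, with 115 and 54.3 FPKM with YTHDF1 and 105 and 52.4 with YTHDF2, against 24.8 and 26.9 in input, and replicate 1 was the higher in both RIP groups. Its changes were 1.58 ± 0.58 (adjusted p = 0.142) and 1.49 ± 0.58 (adjusted p = 0.107).

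Plxnd1, the receptor that Sema3e binds without a neuropilin, had 0.904 and 1.17 FPKM in input, 3.70 and 1.75 with YTHDF1 and 3.34 and 4.03 with YTHDF2. Its change of 1.20 with YTHDF2 passed only with the replicate block (limma adjusted p = 0.0550 without and 0.0286 with it). With the GC and length correction added, its sign turned, to -0.28 with YTHDF1 and -0.42 with YTHDF2. Plxnc1, the receptor of Sema7a, had the smallest change of the plexins, 0.12 with YTHDF1 (adjusted p = 0.871) and 0.57 with YTHDF2 (adjusted p = 0.334).

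The neuropilins were both under 1 FPKM in input. Nrp1 was not tested, and its ratio of group means to input was 0.655 with YTHDF1 and 1.03 with YTHDF2. Nrp2 had 0.461 and 0.470 FPKM in input, 0.572 and 1.13 with YTHDF1 and 1.43 and 3.59 with YTHDF2. Both RIP groups were above input and did not overlap each other. Its change with YTHDF2, 1.19, passed only with the replicate block (limma adjusted p = 0.0618 without and 0.0170 with it), and with YTHDF1 it was 0.32 (adjusted p = 0.607).

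Between the antibodies, no member differed by limma after adjustment, and the median change of the members from YTHDF1 RIP to YTHDF2 RIP was 0.37, beside 0.22 for all tested genes. At an unadjusted p under 0.05, 4 members were higher with YTHDF2, where 3.54% of tested genes were: Sema4c (1.04 ± 0.39), Sema4f (1.24 ± 0.40), Sema6b (0.76 ± 0.32) and Nrp2 (0.87 ± 0.37), all with a limma adjusted p of 0.864. Both YTHDF2 libraries lay above both YTHDF1 libraries in 15 of the 24 tested members, where 21.6% of tested genes did so, and below them in 0, where 8.09% did. Among the 19 members with an input mean of at least 1 FPKM these counts were 2 higher at an unadjusted p under 0.05, where 3.07% of such genes were, and 11 without overlap, where 19.9% were. Only 1 of all tested genes (0.00904%) passed this comparison. The replicates set how far it can see: the median fold between replicates over the 31 members was 1.19 in input, 1.26 with YTHDF1 and 1.50 with YTHDF2. The lean of the members to YTHDF2 did not hold in every fit. With the replicate block and the GC and length correction, their median was -0.08, beside -0.03 for all genes. In that fit 16 of the 24 members were negative. Scaled to nuclear protein-coding genes, the medians were 0.17 and 0.03.

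The members' transcripts are richer in GC and longer than most. Their median GC content was 56.2% and their median length 5930 bases, beside 50.2% and 3396 bases for the tested protein-coding genes. Over the 24 tested members the change rose with GC content (Spearman's correlation 0.63 with YTHDF1 and 0.51 with YTHDF2), as it did over the 9815 tested protein-coding genes (0.56 and 0.40). With transcript length the change fell over the members (-0.54 and -0.44) but rose over the protein-coding genes (0.17 and 0.36). Genes are not independent replicates and share the same 6 libraries, so these values are descriptions without a test. For protein-coding genes with 55% to 60% GC the median change was 0.58 with YTHDF1 and 0.72 with YTHDF2, and Sema4b, Sema4c and Sema4f, with 56.6% to 57.3% GC, stood at 2.03 to 2.16 and 2.68 to 3.33. Plxna1, Plxnb1 and Plxnb2, with 57.3% to 57.6% GC, stood between 1.27 and 1.58 and between 1.49 and 1.64. Sema4g, with 57.3% GC, stood at 0.93 and 1.30.

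**Figure D4:**
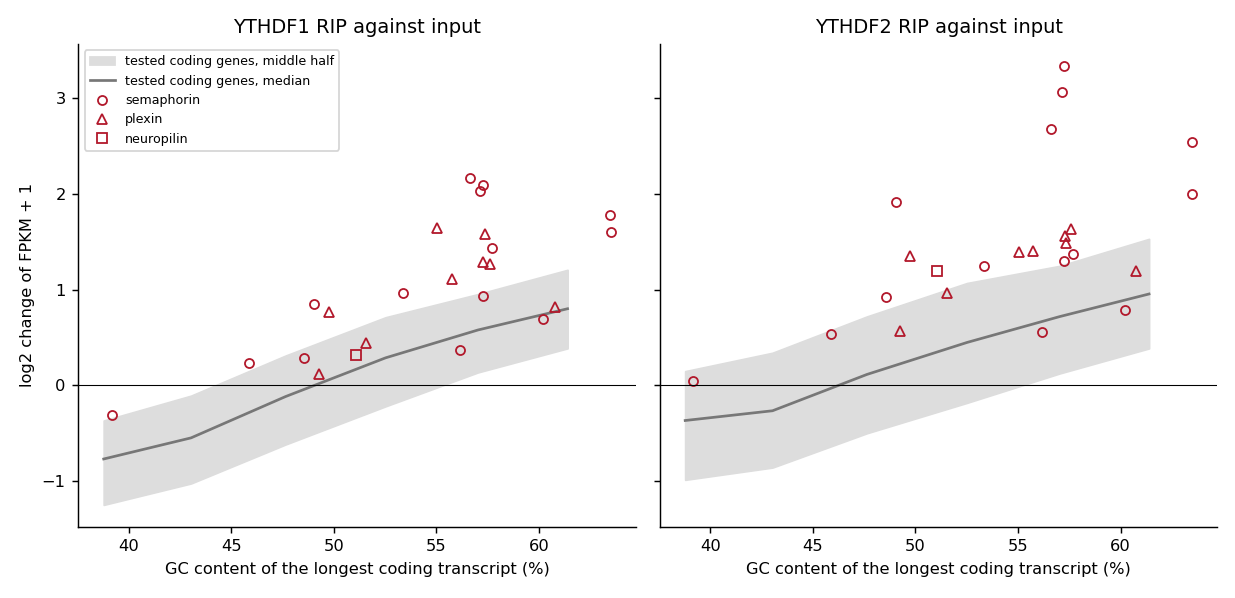
Log2 change of FPKM + 1 in each RIP against input (vertical axis) and GC content (%) of the longest coding transcript (horizontal axis) of the 24 tested members, with circles for semaphorins, triangles for plexins and a square for Nrp2. The grey line and band are the median and the middle 50% of tested protein-coding genes in bins of GC, and the class 4 ligands Sema4b, Sema4c and Sema4f lie farthest above them, at 2.03 to 2.16 with YTHDF1 and 2.68 to 3.33 with YTHDF2.

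When GC content and length were corrected for and the replicate number entered as a block, the median change of the tested members went to 0.32 with YTHDF1 and 0.15 with YTHDF2, beside 0.02 and -0.05 for all tested genes. Sema4b kept 1.36 with YTHDF1 (limma adjusted p = 0.0307) and 1.56 with YTHDF2 (adjusted p = 0.0101). Sema4c kept 1.92 and Sema4f 2.15 with YTHDF2 (adjusted p = 0.00672 and 0.00564), and with YTHDF1 they stood at 1.20 and 1.24 (adjusted p = 0.0558 and 0.0559). Sema6b, at 1.09, and Sema6d, at 1.22, also passed with YTHDF2 (adjusted p = 0.0229 and 0.0476). Sema6c fell out of both comparisons, at 0.49 and 0.50. None of the 9 plexins passed in this fit in either comparison, and their median changes were 0.31 and 0.09. The fit corrects for GC content and length together, by their trends over all tested genes. The part of either in the members' values was not tested beyond this fit.

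**Figure D5:**
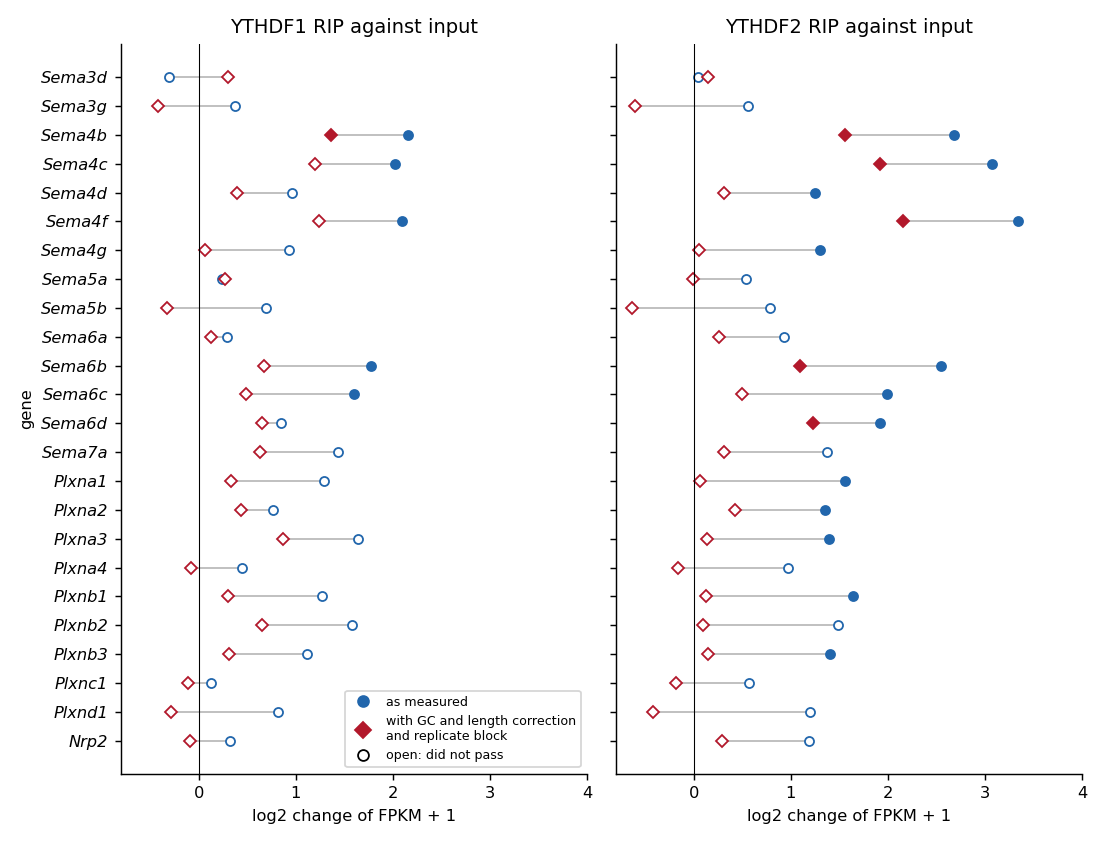
Log2 change of FPKM + 1 in each RIP against input for the 24 tested members, as measured (blue circles) and with the correction for GC content and length and the replicate block (red diamonds). Filled symbols passed at an adjusted p under 0.05. After correction Sema4b passes with YTHDF1 at 1.36, and Sema4b, Sema4c, Sema4f, Sema6b and Sema6d pass with YTHDF2 at 1.09 to 2.15, where 5.09% and 12.5% of all genes in that fit were higher, and none of the 9 plexins passes.

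Of 53 genes for adhesion partners, kinases and cytoskeletal effectors among others that act with these receptors, 43 were tested. None passed with YTHDF1 by limma, and 5 did with YTHDF2. The 4 of 43 higher stand beside 11.9% of all tested genes and the 1 lower beside 6.66%, so these shares are not above those of all genes. Higher with YTHDF2 were Cdk5r1 (2.73), which activates the kinase Cdk5, the adhesion protein gene Cntn2 (2.55), Arhgap35 (2.17) and Limk2 (1.50), a kinase that acts on cofilin. The kinase gene Rock1 was lower (-2.07). The median change of the partners was 0.18 with YTHDF1 and 0.39 with YTHDF2, beside 0.95 and 1.36 for the members. Cntn2 is a granule cell marker as well, and of the 7 tested granule cell markers 1 was higher with YTHDF2 and 0 with YTHDF1.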

How the data were processed

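RIP-seq was done by the authors on 6 libraries, and the deposited table holds 1 FPKM value per gene and library. STAR and Cufflinks on GRCm38 are named in the methods of the study, whereas the submitters' processing notes name Bowtie 0.12.2, mm8 and mm9, so which made the values is not settled. Low FPKM values did not resolve into whole fragments, and no count test was run. All 6 libraries entered 1 limma 3.58.1 fit (R 4.3.3) on log2(FPKM + 1) with group means, 3 residual degrees of freedom and an intensity trend, checked on simulated data. Tests were 2-sided and covered the 11057 genes that averaged 1 FPKM or more, and p-values were adjusted by Benjamini-Hochberg over all of them. Symbols, coordinates (1-based) and transcripts came from GENCODE release M21 on GRCm38. GC content and length were corrected with splines of 4 degrees of freedom.

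The design text of the series ties input and RIP samples by replicate number. Deviations of replicate 1 from the group mean correlated at -0.14 (input with YTHDF1 RIP), -0.14 (input with YTHDF2 RIP) and 0.68 (YTHDF1 RIP with YTHDF2 RIP) over the tested genes. The main fit has no block, and values with it are given where a call changes. The members and lists were chosen with earlier results of these data known. Values in every library are given for members that passed in a comparison, with or without the block, and for the most abundant member in input. Values of the other members were given to account for all 31. Of the other pathway genes, those that passed are named. Alternatives covered pseudocount, filter, scaling, libraries in the fit, trend, block, GC content and length, and each library left out.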

Additional observations from a re-analysis of the deposited data

How the results depend on the processing

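No member that passed without the block changed sign under any alternative run, whereas Plxna4 and Plxnd1, which passed with YTHDF2 under the block only, turned negative with the GC and length correction. Members higher with YTHDF1 numbered 5, and 0 without the filter on low values or with each library scaled to a common sum (14 and 16 at an unadjusted p under 0.05). They numbered 1 with the replicate block and the GC and length correction, and 0 with that correction alone, an alternative added after seeing the data (5 at an unadjusted p under 0.05 in both). Members higher with YTHDF2 numbered 13, and 0 without the filter (23 unadjusted), 5 with block and correction and 4 with the correction alone. In this paragraph, counts of all tested genes cover both directions, and counts of members are of those that were higher. The replicate block alone gave 7 and 16 members. With it 1432 and 3349 of all tested genes passed, of which 39.9% and 65.0% were higher, against 284 and 2049 without the block. Between the antibodies 2 of all tested genes passed with it, against 1 without. Leaving out 1 library gave 0 to 6 members with YTHDF1, 0 to 12 with YTHDF2 and 0 between the antibodies, and 0 to 802, 0 to 2141 and 0 to 1 of all tested genes. A lone library was then assumed to vary like the other groups. Of all tested genes with YTHDF1, 604 passed when scaled to nuclear protein-coding genes, 755 with only the 4 libraries compared, 1188 with block and correction, 456 with the correction alone, and 0 without the filter or scaled to a common sum. With YTHDF2, 1243 passed at a mean of at least 5 FPKM and 0 without the filter. Between the antibodies 0 passed with a pseudocount of 0.1, without the filter, at a mean of at least 5 FPKM, scaled to a common sum or with only the 4 libraries. A crossed pairing of replicate numbers, added after seeing the data, gave 10 and 18 members, and 2239, 4007 and 2 of all tested genes.

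The median of all tested genes was 0.05 with YTHDF1 and 0.26 with YTHDF2, moved to 0.09 and 0.10 when scaled to nuclear protein-coding genes, and to 0.49 and 0.79 when scaled to a common sum. The medians of the tested members were then 1.00 and 1.16, and 1.48 and 2.01. Of the tested genes that passed in either direction, 24.3% with YTHDF1 and 64.1% with YTHDF2 were higher. These shares of the calls were 37.4% and 52.8% when scaled to nuclear protein-coding genes, and 91.0% with YTHDF2 when scaled to a common sum. Members with a YTHDF1 ratio over 2 numbered 19, and 11 when 1 FPKM was added to both sides. Depth is unknown, and 5 of 7 class 3 semaphorins, Sema4a and Nrp1 lay too low for the test.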
